A study of Mus musculus with 16 samples.

Results

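The genes described here are the nuclear-encoded subunits of the mitochondrial respiratory chain and of ATP synthase. They were chosen by symbol (Nduf, Uqcr, Sdh, Cox4 to Cox8 and Atp5 genes) and numbered 81 of the 19938 genes tested. They comprised 35 subunits of complex I, 4 of complex II, 8 of complex III, 17 of complex IV and 17 of complex V. Where several probe sets named a gene alone, as for 16 of the 81, the probe set with the largest average value represented the gene. Another 4 symbols, Cox7c, Ndufb4, Ndufb4b and Ndufs5-ps, were found only on probe sets that list several genes and were not used here. Ndufa4 is counted with complex I by its symbol, although the protein is known as a subunit of complex IV.

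The respiratory chain passes electrons from NADH and succinate to oxygen through complexes I to IV and pumps protons across the inner mitochondrial membrane. ATP synthase, complex V, lets the protons flow back through a membrane rotor and makes ATP in its catalytic head. Most subunits are encoded in the nucleus, imported and assembled with a small set of subunits made inside the mitochondrion. In dendritic cells and macrophages the balance between respiration and glycolysis is known to shift with activation and with oxygen supply.

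RNA was measured on whole-transcript arrays in myeloid cells of mouse lung that carry CD11b, CD11c and MHC class II on their surface, sorted as CD11b+ DCs in the wording of the labels. The 8 tumoral arrays hold cells from tumours and the 8 peritumoral arrays hold cells from the lung tissue beside them. All 16 came from tumour-bearing mice: immunocompetent C57BL/6 hosts with Lewis lung carcinoma (LLC), a mouse lung tumour line of the same strain, placed in the airways, so no array represents a lung without tumour. No source used here gives the genotype, age or pooling of the mice or the animal behind an array, and p-values therefore measure the spread between these arrays, which may be partly technical. The groups follow the array titles. Patterns described further on cross those titles, and whether each title matches its sample was not tested, so every difference is one between titles. Values are on the log2 scale, differences are tumoral minus peritumoral, and group values are mean ± SD with n = 8 arrays unless a lowest, median and highest value are given.

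The sorted phenotype was checked first. Itgax, which encodes CD11c, lay between 11.07 and 11.79 on all arrays and H2-Ab1, of MHC class II, between 13.06 and 13.38. Flt3, the growth factor receptor of dendritic cells and their precursors, was lower in tumoral 1, 4 and 7 and peritumoral 3 and 6 (8.73 to 9.25) than in the other 11 arrays (9.39 to 10.45). Zbtb46, a transcription factor of conventional dendritic cells, was likewise at most 7.56 in those 5 arrays and at least 7.74 elsewhere. Peritumoral 4 carried markers of other cells: its mean over 7 endothelial genes was 10.94, against at most 8.60 on any other array, and its means over the lung epithelial, B cell and T and NK cell lists were also the highest of the 16. Peritumoral 7 had the next highest endothelial mean. Peritumoral 3 and 6 came next after peritumoral 4 in the means over keratin and carcinoma markers (7.75 and 7.63) and over fibroblast markers (7.62 and 7.50). Heart muscle markers, the sign of another tissue rich in these subunits, stayed between 6.44 and 6.92 in tumoral and between 6.55 and 6.84 in peritumoral arrays. Results that rest on single arrays are given with and without them below.

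A promoter was given by RefSeq (GRCm38.p6) for 66 of the 81 genes, as 250 bases before and 50 after the start. Motif letters were searched on both strands for 4 factors known to act on nuclear genes of respiration. Counts are of genes, and a gene with several promoters counted if any of them held the letters. The NRF1 letters GCGCANGCG stood in 19 of the 66 genes (28.8%), against 7.03% of all 27025 genes with a promoter. The GABPA letters CCGGAAG stood in 17 (25.8%, against 9.93%), the YY1 letters AAGATGG in 10 (15.2%, against 7.28%) and the ERR alpha letters AAGGTCA in 7 (10.6%, against 5.38%). At least 1 motif was found for 39 of the 66 genes (59.1%), against 25.8% of all genes with a promoter. No 2 of these motifs overlapped in the promoters printed here. A match is a description of letters, not a site of binding. Of the promoters below, those of Atp5md and Uqcrh belong to the subunits with a large difference between the labels. Atp5d is a subunit of the opposite sign. Ndufb6 and Sdhd are subunits with wide variation within both groups. These 5 were chosen after their values were seen. Capitals mark a motif, read 5′ to 3′ on the gene's strand. The GABPA letters appear in reverse complement in Atp5md, Uqcrh, Ndufb6 and Sdhd. Sdhd also holds the NRF1 letters and, in reverse complement, the ERR alpha letters. None of the 4 motifs was found in the Atp5d window.
Atp5md, chr19:47090598-47090897, minus strand: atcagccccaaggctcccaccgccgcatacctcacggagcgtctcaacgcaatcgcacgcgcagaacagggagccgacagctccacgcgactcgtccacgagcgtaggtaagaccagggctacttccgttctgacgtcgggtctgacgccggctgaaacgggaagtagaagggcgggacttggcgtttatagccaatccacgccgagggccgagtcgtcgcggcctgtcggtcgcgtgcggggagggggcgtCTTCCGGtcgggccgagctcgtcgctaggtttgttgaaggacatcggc
Uqcrh, chr4:116075021-116075320, minus strand: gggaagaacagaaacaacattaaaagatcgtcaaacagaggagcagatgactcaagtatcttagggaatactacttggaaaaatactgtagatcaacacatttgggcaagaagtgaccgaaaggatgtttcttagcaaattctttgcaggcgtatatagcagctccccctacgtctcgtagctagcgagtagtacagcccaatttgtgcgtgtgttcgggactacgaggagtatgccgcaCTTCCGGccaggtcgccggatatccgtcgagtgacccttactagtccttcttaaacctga
Atp5d, chr10:80142025-80142324, plus strand: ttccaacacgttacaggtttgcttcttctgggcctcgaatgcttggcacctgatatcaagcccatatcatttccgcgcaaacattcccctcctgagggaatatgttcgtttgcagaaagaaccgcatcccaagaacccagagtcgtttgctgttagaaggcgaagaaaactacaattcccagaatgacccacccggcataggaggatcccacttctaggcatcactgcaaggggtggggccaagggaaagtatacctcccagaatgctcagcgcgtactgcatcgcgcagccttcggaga
Ndufb6, chr4:40279372-40279671, minus strand: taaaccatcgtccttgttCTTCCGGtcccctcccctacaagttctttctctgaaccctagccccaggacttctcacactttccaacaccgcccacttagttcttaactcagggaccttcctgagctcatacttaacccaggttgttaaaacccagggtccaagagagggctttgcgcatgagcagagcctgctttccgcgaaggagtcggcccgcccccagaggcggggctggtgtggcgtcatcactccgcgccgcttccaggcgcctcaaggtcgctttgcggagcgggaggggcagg
Sdhd, chr9:50603800-50604099, minus strand: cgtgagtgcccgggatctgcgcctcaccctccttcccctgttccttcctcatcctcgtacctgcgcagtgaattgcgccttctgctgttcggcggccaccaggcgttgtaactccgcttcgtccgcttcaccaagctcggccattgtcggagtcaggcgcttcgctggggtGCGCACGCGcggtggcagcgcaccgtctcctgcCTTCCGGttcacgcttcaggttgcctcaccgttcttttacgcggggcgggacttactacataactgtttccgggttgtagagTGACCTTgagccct

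Taken by their group means, 59 of the 81 subunit genes (72.8%) were higher in tumoral arrays, against 41.7% of all genes. The median difference was 0.12, against -0.02 over all genes. Most subunits had high values, and 75 of the 81 lay above the median gene. Among these 75 the median difference was 0.12, against 0.01 over the 9969 genes above the median. In that limma fit 24 of the 75 and 1476 of the 9969 had an unadjusted p under 0.05. Without peritumoral 4, 55 of the 81 were higher (median 0.09, against -0.03 over all genes). Without peritumoral 4 and 7, 51 were higher (median 0.08, against -0.03 over all genes). With all arrays kept, none passed the threshold. limma called 0 of 81 subunits at an adjusted p under 0.05, against 0 of 19938 genes (0.00%), and the smallest adjusted p among the subunits was 0.232. Without adjustment, 26 subunits (32.1%) had a p under 0.05, 23 of them higher and 3 lower, against 11.5% of all genes. An exact rank-sum test called 0 genes after adjustment, with 23 subunits at an unadjusted p under 0.05, against 2283 of 19938 genes (11.5%). The 8 tumoral and 8 peritumoral values overlapped in every one of the 81, whereas they did not overlap in 0.0853% of all genes. In sorted bulk samples such as these, fewer cells of a type and less RNA per cell cannot be told apart.

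By complex, the share that was higher in tumoral arrays ran from 62.5% to 77.1%. It was 27 of 35 in complex I (median difference 0.16), 3 of 4 in complex II (0.05), 5 of 8 in complex III (0.08), 11 of 17 in complex IV (0.11) and 13 of 17 in complex V (0.12). The subunits with an unadjusted p under 0.05 were spread over complex I (10), III (3), IV (6) and V (7), with 0 in complex II.

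**Figure D1:**
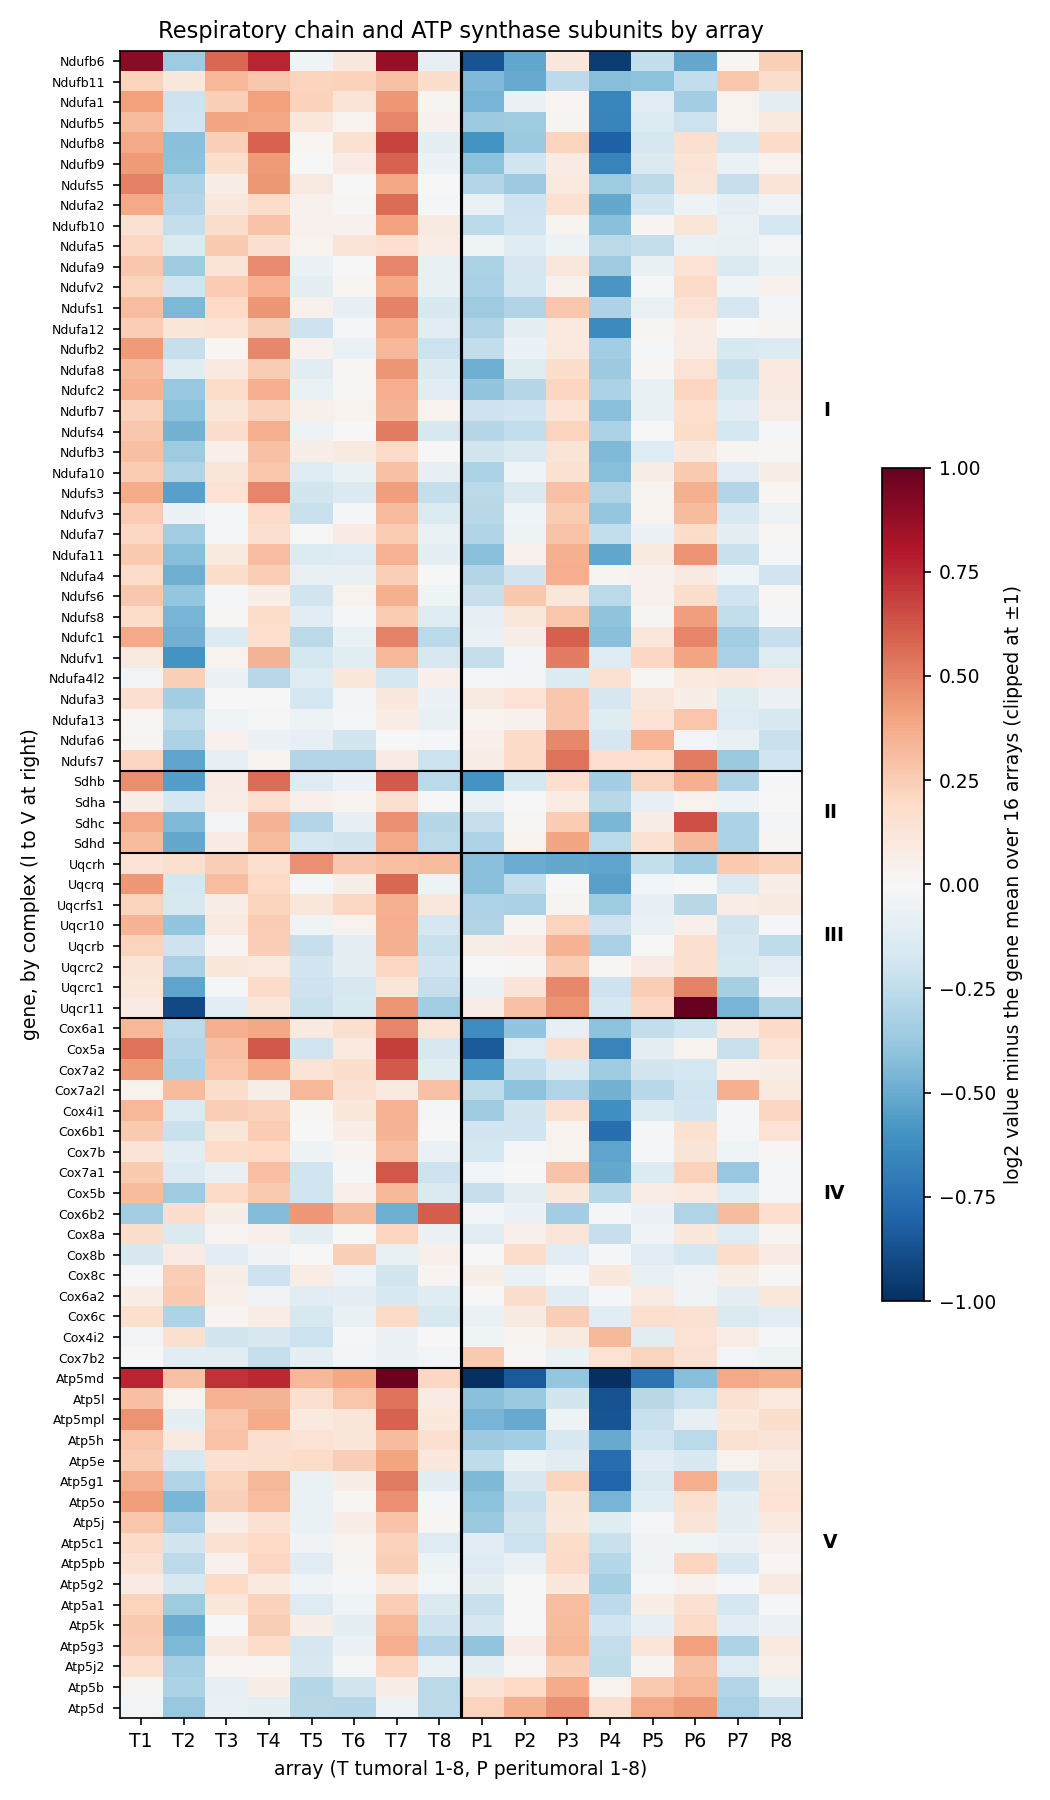
Deviation of each of the 81 subunit genes from its own mean over 16 arrays (log2, colour), with genes in rows by complex and arrays in columns, the 8 tumoral arrays left of the 8 peritumoral ones. Tumoral 1, 4 and 7 are high and tumoral 2 and peritumoral 4 low across most rows.

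In complex I, the NADH dehydrogenase, the subunits with the smallest p-values were small accessory proteins. Ndufb11, an accessory subunit of the membrane arm, had a lowest, median and highest value of 10.26, 10.38 and 10.49 in tumoral arrays and of 9.65, 9.82 and 10.43 in peritumoral arrays. The tumoral values were narrow, and peritumoral 7 (10.43) and 8 (10.33) lay among them. Its difference was 0.46 (SE 0.10, limma adjusted p = 0.232). Ndufa1, a small membrane subunit needed for assembly of the complex, spanned 7.69, 8.13 and 8.33 in tumoral and 7.24, 7.79 and 7.92 in peritumoral arrays (lowest, median, highest), a difference of 0.42 (SE 0.11, limma adjusted p = 0.246). Ndufa5, an accessory subunit of the arm that reaches into the matrix, spanned 6.74, 7.03 and 7.14 in tumoral and 6.61, 6.81 and 6.86 in peritumoral arrays, a difference of 0.22 (SE 0.06, limma adjusted p = 0.246). Its mean value lay below the median gene. Ndufb5, of the membrane arm, differed by 0.39 (SE 0.12, limma adjusted p = 0.256).

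Ndufb6 and Ndufb8, further membrane-arm subunits, were among the 8 members with the widest range over all arrays. Ndufb6 spanned 9.37, 10.07 and 10.64 in tumoral and 8.78, 9.35 and 9.97 in peritumoral arrays, with a difference of 0.68 (SE 0.21) that was the second largest of any member but did not pass (limma adjusted p = 0.269). Ndufb8 spanned 8.17, 8.78 and 9.27 in tumoral and 7.78, 8.42 and 8.81 in peritumoral arrays, a difference of 0.39 (limma adjusted p = 0.405). In both genes tumoral 1, 4 and 7 held the 3 highest tumoral values and tumoral 2 the lowest.

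The remaining complex I subunits differed by between -0.27 and 0.31. The catalytic core subunits held both signs: Ndufs7, an iron-sulphur subunit next to the quinone site, was the lowest at -0.27 (limma adjusted p = 0.443), Ndufv1, which binds NADH, differed by -0.06, and Ndufs1, the largest iron-sulphur subunit, by 0.20. These 3 were chosen after their values were seen. Ndufa4 and its paralogue Ndufa4l2, a gene known to be induced by HIF-1 under low oxygen, had small differences. Ndufa4 measured 7.97 ± 0.25 in tumoral and 7.92 ± 0.21 in peritumoral arrays, and Ndufa4l2 6.19 ± 0.16 and 6.25 ± 0.09 (differences 0.05 and -0.07, limma adjusted p = 0.905 and 0.744). Ndufa4l2 lay below the median gene in its mean value.

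Complex II, succinate dehydrogenase, is the one complex made wholly of nuclear-encoded subunits and also a step of the citrate cycle. Its 4 genes varied more within the labels than between their means. Sdha, the flavoprotein that oxidises succinate, spanned 9.96, 10.19 and 10.30 in tumoral and 9.85, 10.11 and 10.20 in peritumoral arrays, a difference of 0.09 (limma adjusted p = 0.566). Sdhb, the iron-sulphur subunit, measured 9.80 ± 0.42 in tumoral and 9.63 ± 0.33 in peritumoral arrays, a difference of 0.17 (limma adjusted p = 0.719). The membrane anchors Sdhc and Sdhd differed by 0.01 and -0.01 (limma adjusted p = 0.986 for both), and either sign turned when single arrays were left out. Within the tumoral arrays Sdhb reached 10.18, 10.27 and 10.33 in arrays 1, 4 and 7, against 9.17, 9.59 and 9.45 in arrays 2, 5 and 8, a wider span than the difference between the labels.

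Complex III, which passes electrons from ubiquinol to cytochrome c, held members of both signs. Uqcrh, the hinge protein beside cytochrome c1, spanned 10.75, 10.87 and 11.07 in tumoral and 10.09, 10.23 and 10.88 in peritumoral arrays, a difference of 0.51 (SE 0.11, limma adjusted p = 0.232). Of its peritumoral values 6 lay between 10.09 and 10.37, whereas peritumoral 7 (10.88) and 8 (10.85) lay among the tumoral ones. Uqcrfs1, the Rieske iron-sulphur protein, differed by 0.29 (limma adjusted p = 0.256) and Uqcrq, a small subunit near the quinone site, by 0.33 (limma adjusted p = 0.305). Uqcr11, a small accessory subunit, and Uqcrc1, a core protein, were lower on average in tumoral arrays. Uqcr11 spanned 8.60, 9.38 and 9.94 in tumoral and 9.04, 9.64 and 10.53 in peritumoral arrays, a difference of -0.27 (limma adjusted p = 0.614) with the second widest range of any member, 1.93. Uqcrc1 measured 9.90 ± 0.24 in tumoral and 10.08 ± 0.31 in peritumoral arrays (difference -0.18, limma adjusted p = 0.605).

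In complex IV, cytochrome c oxidase, several subunits come as isoforms with different tissue use. The larger differences were in forms used by most tissues. Cox6a1 spanned 9.78, 10.29 and 10.54 in tumoral and 9.42, 9.82 and 10.24 in peritumoral arrays, a difference of 0.42 (SE 0.12, limma adjusted p = 0.253). Cox7a2 spanned 8.72, 9.26 and 9.64 in tumoral and 8.46, 8.85 and 9.10 in peritumoral arrays, a difference of 0.39 (SE 0.12, limma adjusted p = 0.267). Cox4i1 differed by 0.28 (limma adjusted p = 0.342), and Cox5a, a subunit on the matrix side, by 0.40 (limma adjusted p = 0.398). None of these passed, and the labels overlapped in each.

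The isoforms tied to muscle, testis or hypoxic lung had smaller differences, between -0.16 and 0.14. Some had low values: Cox7b2 (tumoral and peritumoral means 4.37 and 4.53), Cox8b (6.34 and 6.35) and Cox8c (6.95 and 6.96) lay below the median gene. Cox4i2, Cox6a2, Cox6b2 and Cox7a1 lay above it. Whether the low values carry signal was not tested. Cox4i2, the form of subunit IV known from lung and low oxygen, measured 7.08 ± 0.12 in tumoral and 7.20 ± 0.13 in peritumoral arrays, a difference of -0.12 (limma adjusted p = 0.504). The muscle forms Cox6a2, Cox7a1 and Cox8b differed by -0.03, 0.14 and -0.003. The testis forms Cox6b2 and Cox8c differed by 0.08 and -0.01, and Cox7b2, also of testis, by -0.16 (limma adjusted p = 0.327, with an unadjusted p of 0.014). The partner forms Cox6b1, Cox7b and Cox8a differed by 0.21, 0.15 and 0.05. Cox6b2 was low in tumoral 1, 4 and 7, with 6.86, 6.77 and 6.72, and high in tumoral 2, 5 and 8, with 7.39, 7.64 and 7.81.

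Cox7a2l encodes a protein that joins complexes III and IV into supercomplexes, and C57BL/6 mice are known to carry a shortened form of it. It spanned 8.69, 8.82 and 8.98 in tumoral and 8.18, 8.39 and 9.01 in peritumoral arrays, a difference of 0.36 (SE 0.10, limma adjusted p = 0.246). Peritumoral 7 held the highest value of all 16 arrays and peritumoral 8 measured 8.75, while peritumoral 1 to 6 lay between 8.18 and 8.45. Cox7a2l and Cox6b2 were the 2 members in which tumoral 1, 4 and 7 held the 3 lowest tumoral values.

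In complex V 13 of 17 subunits had positive differences, and the 4 negative ones were Atp5d, Atp5b, Atp5j2 and Atp5g3. Atp5md, known as DAPIT and a small subunit linked to the joining of ATP synthase dimers, had the largest difference and the widest range of any member, 2.64. It measured 11.55, 11.08, 11.51, 11.54, 11.12, 11.18, 11.77 and 11.00 in tumoral 1 to 8, and 9.69, 9.95, 10.40, 9.13, 10.05, 10.36, 11.17 and 11.14 in peritumoral 1 to 8. Peritumoral 7 and 8 thus lay inside the tumoral range and the other 6 peritumoral arrays below it. The group values were 11.34 ± 0.28 in tumoral and 10.24 ± 0.70 in peritumoral arrays, a difference of 1.11 (SE 0.24, limma adjusted p = 0.232), and its 3 probe sets differed by 1.06 to 1.11.

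Atp5h, subunit d of the peripheral stalk, spanned 10.76, 10.83 and 11.00 in tumoral and 10.17, 10.44 and 10.83 in peritumoral arrays, a difference of 0.39 (SE 0.09, limma adjusted p = 0.232). Atp5l, the membrane subunit g, spanned 8.94, 9.19 and 9.45 in tumoral and 8.04, 8.66 and 9.06 in peritumoral arrays, a difference of 0.52 (SE 0.12, limma adjusted p = 0.232), and its 6 probe sets differed by 0.47 to 0.54. Atp5mpl, a small proteolipid of the membrane part, differed by 0.48 (limma adjusted p = 0.253). In all 3 genes the values of peritumoral 7 and 8 lay inside the tumoral range.

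Atp5d, the delta subunit of the central stalk, spanned 11.92, 12.13 and 12.27 in tumoral and 11.98, 12.60 and 12.77 in peritumoral arrays, a difference of -0.36 (SE 0.11, limma adjusted p = 0.256). Peritumoral 7 (11.98) and 8 (12.08) were again the 2 that lay among the tumoral arrays. Atp5b, the catalytic beta subunit, differed by -0.25 (limma adjusted p = 0.343). Both were chosen after their values were seen. The 3 genes for subunit c of the rotor ring, Atp5g1, Atp5g2 and Atp5g3, encode the same mature protein behind different import sequences. They differed by 0.26, 0.05 and -0.02 (limma adjusted p = 0.528, 0.784 and 0.973).

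In 6 members, Atp5h, Atp5l, Atp5md, Cox7a2l, Ndufb11 and Uqcrh, every tumoral array and peritumoral 7 and 8 lay above all of peritumoral 1 to 6. In 1, Atp5d, they all lay below. These 7 were 8.64% of the 81 subunits, against 1.66% of all genes, and 4 of them belonged to complex V. The same split was found in 24 of 55 cytosolic ribosomal protein genes (43.6%), 22 above and 2 below, and in 0 of 77 mitochondrial ribosomal protein genes. Monocyte markers ran in part with it in their mean, although 0 of the 4 genes had the split itself. Their mean over 4 genes was 10.87 to 11.14 in tumoral arrays, and it was 10.96 and 11.04 in peritumoral 7 and 8 and 10.22 to 10.94 in peritumoral 1 to 6. All 4 were higher on average in tumoral arrays (median difference 0.40, 3 with an unadjusted p under 0.05, 0 called by limma), and their part in the subunit values was not tested.

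**Figure D2:**
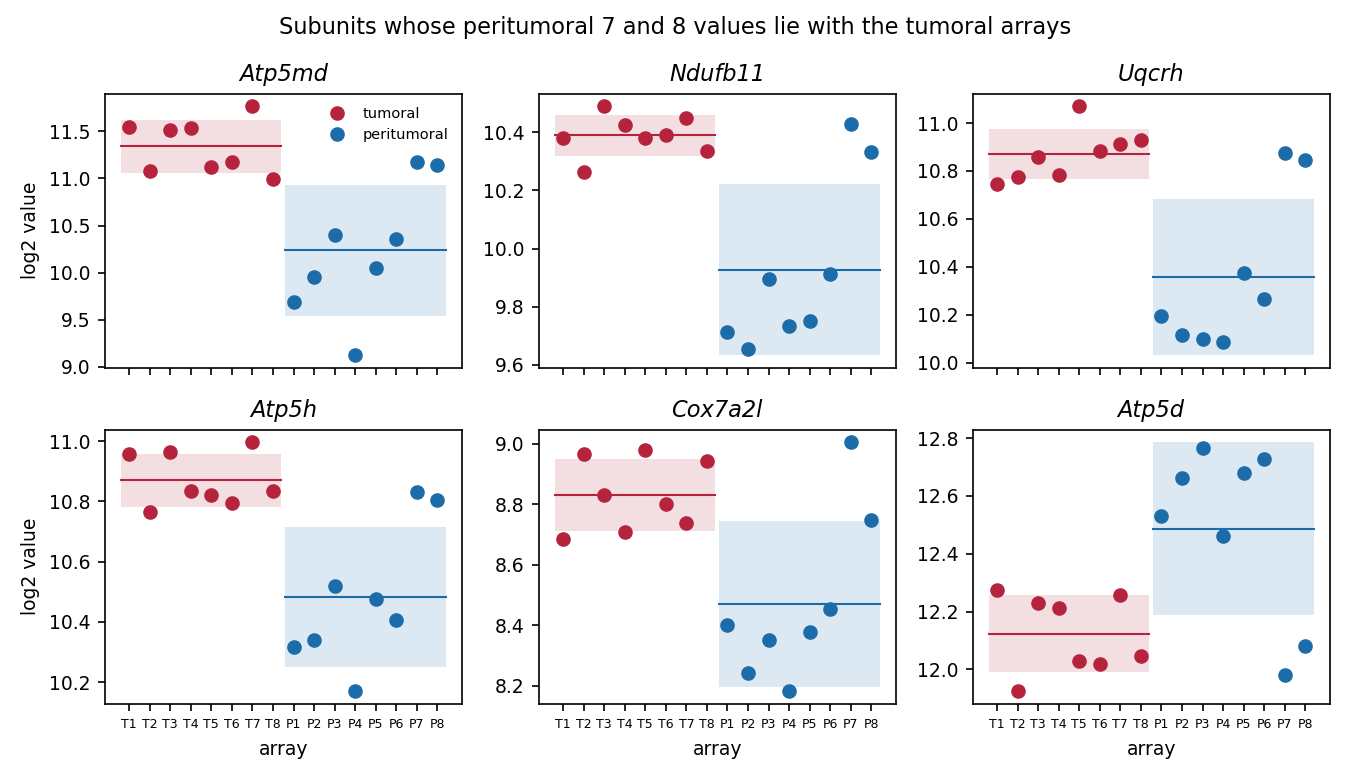
Log2 values of 6 of the 7 subunit genes on each array, tumoral 1 to 8 (red) left of peritumoral 1 to 8 (blue), with a line at the group mean and a band of ± 1 SD. The points of peritumoral 7 and 8 lie at the tumoral level and apart from peritumoral 1 to 6.

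Without peritumoral 7 and 8, limma called 13 of the 81 subunits (11 higher, 2 lower), against 2.62% of all genes. These 2 arrays were named for leaving out with their values known, so the calls are no independent evidence of a difference between the labels. The higher ones were Atp5md (1.41, SE 0.18, adjusted p = 0.000661), Uqcrh (0.68, SE 0.07, adjusted p = 5.7e-05), Atp5l (0.65), Ndufb11 (0.61, SE 0.06, adjusted p = 5.3e-05), Atp5mpl (0.60), Cox6a1 (0.54), Atp5h (0.50), Cox7a2l (0.50), Ndufa1 (0.48), Ndufb5 (0.48) and Uqcrfs1 (0.36). The lower ones were Atp5d (-0.51, adjusted p = 0.00143) and Atp5b (-0.35, adjusted p = 0.0347). Without peritumoral 7 alone limma called 7 subunits, against 0.642% of all genes, and they were the 7 members with the split described above. Without peritumoral 8 alone it called 3, Atp5md, Ndufb11 and Uqcrh, against 0.100% of all genes. Without peritumoral 4 and 7 it called 6, against 0.441% of all genes. With peritumoral 7 and 8 as the only peritumoral arrays, 72 of the 81 subunits were higher in tumoral arrays (median 0.10, against 0.0001 over all genes). The share of all genes that was higher was not counted there. That fit keeps tumoral 1, 4 and 7, high in most subunits as described below. It leaves out peritumoral 3 and 6, the peritumoral arrays that were high with them. Atp5md then differed by 0.19, Uqcrh and Ndufb11 by 0.01, and Cox7a2l by -0.04. limma called 0 genes in that fit, which 2 peritumoral arrays make too small to read.

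**Figure D3:**
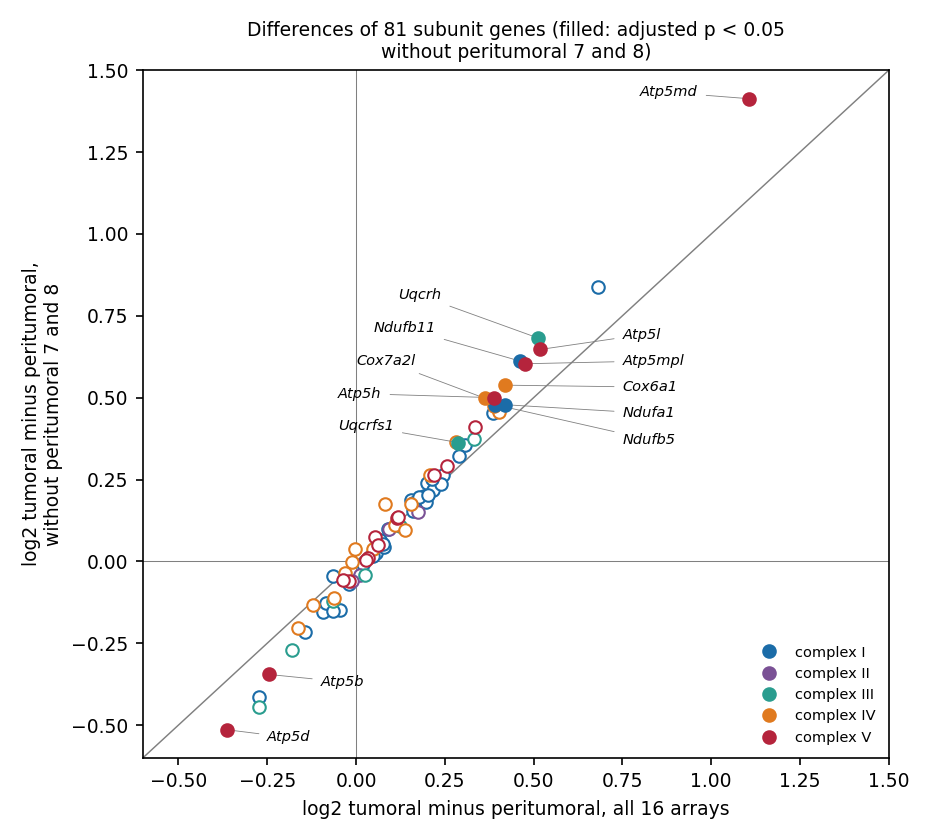
Difference of each of the 81 subunits, tumoral minus peritumoral on the log2 scale, over all 16 arrays (horizontal) and without peritumoral 7 and 8 (vertical), coloured by complex and filled where limma's adjusted p is under 0.05 without those arrays. The 13 filled points are 11 above 0 and 2 below, and Atp5md lies farthest out at 1.11 and 1.41.

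The larger source of variation among the subunits ran across both labels. The mean deviation of the 81 genes from their own averages was 0.24, -0.25, 0.12, 0.22, -0.04, 0.02, 0.32 and -0.06 in tumoral 1 to 8, and -0.24, -0.10, 0.13, -0.35, -0.03, 0.11, -0.09 and 0.02 in peritumoral 1 to 8. In the order in which the arrays were deposited, peritumoral 1 to 8 before tumoral 1 to 8, the arrays peritumoral 3 and 6 and tumoral 1, 4 and 7 lie 3 apart. Tumoral 1, 4 and 7 held the 3 highest tumoral values in 53 of 81 subunits (65.4%), against 22.1% of all genes. They held the 3 lowest in 2 subunits (2.47%), against 16.3% of all genes. Peritumoral 3 and 6 held the 2 highest peritumoral values in 43 subunits (53.1%), against 18.8% of all genes. All 5 were the 5 highest of the 16 values in 22 subunits (27.2%), against 8.37% of all genes.

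The share of subunits with the pattern varied by complex, with few genes in complexes II and III. Tumoral 1, 4 and 7 were the highest tumoral arrays in 27 of 35 subunits of complex I, 3 of 4 of complex II, 5 of 8 of complex III, 7 of 17 of complex IV and 11 of 17 of complex V. The complex IV genes without it included Cox4i2, Cox6a2, Cox6b2, Cox7b2, Cox8b and Cox8c, isoforms tied to muscle, testis or hypoxic lung. Cox4i1, Cox6a1, Cox7a2l and Cox7b also lacked it, whereas the muscle form Cox7a1 showed it. Peritumoral 3 and 6 were the highest peritumoral arrays in 22, 3, 5, 4 and 9 subunits of complexes I to V. All 5 were the highest of the 16 in 13, 2, 1, 1 and 5, which for complex IV (5.88%) is below the share of all genes. At the other end, tumoral 2, 5 and 8 held the 3 lowest tumoral values in 50 subunits (61.7%), against 9.18% of all genes. Peritumoral 1, 4 and 7 and tumoral 2, 5 and 8 also lie 3 apart in deposited order. The mean deviations in peritumoral 1, 4 and 7 were -0.24, -0.35 and -0.09, against -0.10, -0.03 and 0.02 in peritumoral 2, 5 and 8. Tumoral 7 held the highest of all 16 values in 41 subunits, against 5.77% of all genes. Tumoral 2 held the lowest in 27, against 17.8% of all genes, and peritumoral 4 in 38, against 3195 of 19938 genes. Sdhc, chosen for this after its values were seen, had 9.98, 9.94 and 10.06 in tumoral 1, 4 and 7, against 9.16 to 9.58 in the other tumoral arrays. It had 9.86 and 10.25 in peritumoral 3 and 6, against 9.14 to 9.67 in the other peritumoral arrays.

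The 5 arrays tumoral 1, 4 and 7 and peritumoral 3 and 6 were those with the lowest Flt3 and Zbtb46 values given above. Their subunit means were the highest of the 16 except that tumoral 3 (0.12) lay above peritumoral 6 (0.11), and above both peritumoral arrays after quantile normalization. The same 5 were also lowest in lung epithelial markers (6.95 to 7.23, against at least 7.86 elsewhere) and in B cell markers (6.14 to 6.49, against at least 6.86 elsewhere). This did not hold for every list. Peritumoral 3 and 6 exceeded every array but peritumoral 4 in keratin and carcinoma (7.75 and 7.63) and fibroblast markers (7.62 and 7.50). Tumoral 1, 4 and 7 had 6.89 to 7.07 and 6.54 to 6.95 in these lists. Peritumoral 4, lowest in subunit genes, had the highest endothelial and epithelial markers. The arrays also differed in the spread of all values: array SDs ran from 1.98 (tumoral 2) to 2.16 (tumoral 7) and upper quartiles from 8.23 (tumoral 2) to 8.59 (tumoral 4). After quantile normalization the mean deviation of the 81 genes ran from -0.31 in peritumoral 4 to 0.24 in tumoral 7. Tumoral 2 moved from -0.25 to -0.10 and tumoral 4 from 0.22 to 0.13. Peritumoral 1 moved from -0.24 to -0.21 and then lay below tumoral 2. The part of cell mixture, array quality or processing order in these levels was not tested. Mitochondrial ribosomal protein genes showed the tumoral 1, 4 and 7 pattern in 66 of 77 (85.7%), whereas it appeared in 1 of 55 cytosolic ribosomal protein genes and was turned round in 20.

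**Figure D4:**
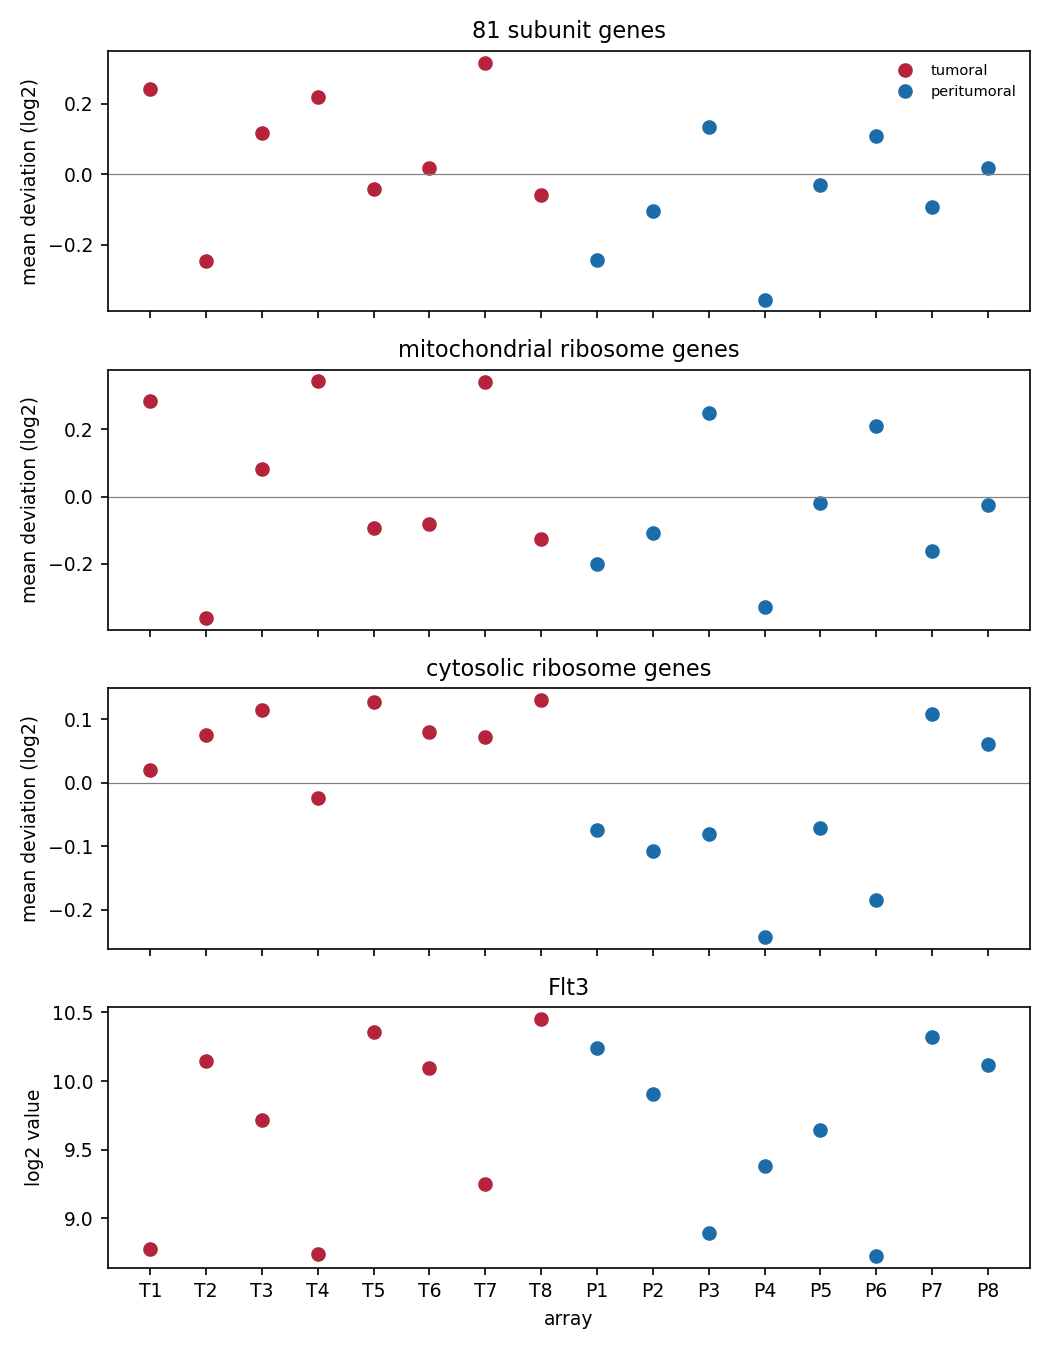
Mean deviation (log2) of the 81 subunit genes, of the mitochondrial ribosomal and of the cytosolic ribosomal protein genes, and the log2 value of Flt3, on tumoral 1 to 8 (red) left of peritumoral 1 to 8 (blue). Tumoral 1, 4 and 7 and peritumoral 3 and 6 are high for the subunits and the mitochondrial ribosome and low for Flt3, and tumoral 3 lies between peritumoral 3 and 6 for the subunits.

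Genes that work with the subunits were described in the same way, and limma called 0 in each list. Of 12 further subunits and electron carriers 6 were higher, with a median difference of 0.01. Ndufab1, the acyl carrier protein of complex I, differed by 0.40 (limma adjusted p = 0.314) and Higd2a, a factor of supercomplexes, by 0.20 (limma adjusted p = 0.329). Of 38 assembly factors 17 were higher (median -0.01), led by Coa6 (0.20) and Cox17 (0.25), which deliver copper to complex IV. The mitochondrially encoded subunits ND3 and COX2 differed by -0.17 and -0.01 (limma adjusted p = 0.511 and 0.973), and the other mitochondrial genes were not analysed here.

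Of 17 citrate cycle and pyruvate dehydrogenase genes 10 were higher (median 0.04), with Fh1, fumarase, at 0.18 and Suclg1, of succinyl-CoA ligase, at 0.19. Of 13 regulators of mitochondrial biogenesis 10 were higher (median 0.03). Polrmt, the mitochondrial RNA polymerase, differed by -0.16 and Yy1 by 0.16 (limma adjusted p = 0.329 and 0.379). Of 10 hypoxia regulators of respiration 3 were higher (median -0.09). Epas1, which encodes HIF-2 alpha and is abundant in endothelium, differed by -1.43 (SE 0.58, limma adjusted p = 0.367), beside the endothelial markers of peritumoral 4 and 7. Bnip3l, a mitophagy receptor, differed by -0.19 (limma adjusted p = 0.416).

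Mitochondrial ribosomal protein genes were higher in 60 of 77 (median 0.10), with Mrps14 at 0.25 and Mrps12 at 0.23. Import genes of the Timm and Tomm families were higher in 14 of 24 (median 0.05), with the outer membrane receptor Tomm20 at 0.41 and Tomm7 at 0.29. Cytosolic ribosomal protein genes were higher in 46 of 55 (median 0.13), with Rpl27a at 0.45 and Rpl41 at -0.29. An unadjusted limma p under 0.05 was found in 14 of the 77 mitochondrial (18.2%), 4 of the 24 import (16.7%) and 28 of the 55 cytosolic genes (50.9%). The share was 32.1% of the 81 subunits and 11.5% of all genes.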

How the data were processed

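The deposited table holds 28853 probe sets on 16 arrays. Per the labels' protocols, the log2 values that the authors deposited come from miRNeasy RNA that was amplified (Ambion WT Expression Kit), biotin-labelled and put on Affymetrix whole-transcript arrays. Base 2 was inferred from a range of 2.31 to 14.33. The log base, background correction and normalization themselves were stated in no source used here. Scanner files, detection calls and scan batches were not used here, and precision is limited by the number of arrays.

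The platform annotation named the probe sets (1 symbol for 21789, several for 1621, none for 5443), leaving 19938 genes, and all 81 subunits matched RefSeq (GRCm38.p6). Groups were taken from the array titles and compared by limma 3.58.1 (R 4.3.3, lmFit with eBayes, no covariate, residual degrees of freedom 14), with Benjamini-Hochberg adjustment over all genes and a threshold of 0.05. The script was tested on simulated data. Lists are described by counts and medians, with no test. The value of a list on an array is the mean over its genes of the log2 value minus the gene's mean over 16 arrays.

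The members and lists were chosen with earlier results of these data known. The rule for named members takes the 4 smallest p in each complex, isoform pairs and trios, the 8 widest ranges, and any member past the threshold or with groups that do not overlap; in each pathway list it takes the 2 smallest p. Alternatives were replicate blocks, quantile normalization, median centring, a filter on dim genes, the mean of all probe sets, trended robust variances, array weights, a rank-sum test, and arrays left out singly or together. The fit without peritumoral 1 to 6 was added after the data were seen.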

Additional observations from a re-analysis of the deposited data

Results flagged for a closer look

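The groups of 8 arrays examined numbered 90 (39 named members and the means over all members and over each complex, in both labels). Of these, 5 held an array that stood apart from the others. That share is close to the 1 in 20 that chance gives for independent groups. These groups share arrays and genes, so the rate cannot tell whether the flags are due to chance. Peritumoral 4 was the low array in 4 of them, with 9.85 for Sdha, 10.16 for Cox6b1, 11.55 for Cox7b and 11.14 for Atp5g2, and it is also the array with the highest endothelial and epithelial markers. The fifth was Ndufa4 in tumoral 2, at 7.46 against a highest tumoral value of 8.19.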

How the results depend on the processing

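Of the 39 named members 27 kept the sign of their difference in every alternative run and 12 changed it in at least 1. Of their 1048 values under alternatives, 26 passed the threshold. limma called 128 genes and 7 subunits without peritumoral 7, 20 genes and 3 subunits without peritumoral 8, 88 genes and 6 subunits without peritumoral 4 and 7, and 522 genes and 13 subunits without peritumoral 7 and 8. Leaving out 1 array at a time, 0 to 128 genes and 0 to 7 subunits were called, 55 to 65 subunits were higher and their median difference ran from 0.08 to 0.17. The replicate block called 0 genes and 0 subunits, with 23 subunits and 1985 genes at an unadjusted p under 0.05. Correlations of same-numbered deviations ran from -0.563 to 0.2865, and 1 tumoral array was closest to its own number. Same-numbered arrays hold different places in the pattern of arrays 3 apart. These correlations therefore cannot show whether the numbers pair the arrays. Median centring moved the median gene to 0.03, with 67 subunits higher. Signs turned under quantile normalization for Sdhc (-0.0217), Cox8a (-0.0022), Cox8b (0.0471) and Cox8c (0.0592), under median centring for Sdhd (0.0424), Cox6a2 (0.0206), Cox8b (0.0494), Cox8c (0.0427) and Atp5g3 (0.0329), and with array weights for Sdhc (-0.0048), Sdhd (0.0245), Cox8c (0.0162) and Atp5g3 (0.0183). They turned without peritumoral 4 and 7 for Sdhc (-0.12), Cox8a (-0.0054), Cox8b (0.023) and Cox8c (0.0151), and without peritumoral 7 and 8 for Sdhc (-0.0429) and Cox8b (0.0389). Without peritumoral 1 to 6 they turned for Sdhd (0.14), Uqcr11 (0.25), Uqcrc1 (0.0956), Cox6b2 (-0.20), Cox7a2l (-0.0447), Atp5g2 (-0.0041) and Atp5g3 (0.0955). Leaving out single arrays, Sdhc ran from -0.0531 to 0.10, Sdhd from -0.0659 to 0.0619, Cox8b from -0.0372 to 0.0212, Cox8c from -0.0466 to 0.019 and Atp5g3 from -0.0776 to 0.0428. The cause was not tested. Signal over background could not be examined.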
